A study of Caenorhabditis elegans with 48 samples.

Results

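Transcript levels were compared between Starved and Fed Caenorhabditis elegans, a nematode worm, by sequencing of polyA RNA in 12 of the 48 libraries of the series, 6 Starved and 6 Fed. The labels give each library only its treatment, Starved or Fed, and the word young adult; no label states the strain, how long the worms starved or which generation was sampled. The series couples such libraries with ribosome profiling and with knockdowns of 2 genes by RNAi, and its title names hormesis and ribosomal RNA methylation passed on between generations. The question addressed here is which transcripts were more or less abundant in Starved than in Fed worms, outside the heat shock and ribosomal protein genes. Of 19454 genes in the count table, 13293 had enough reads to test.

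Worms without food turn from growth to the use of stored fat, sugar and protein. In this species fasting is known to engage lysosomal breakdown, fatty acid oxidation and the trehalose pathway, and embryos pass through a programme in which maternal RNA is replaced by early zygotic transcripts and then by tissue genes such as those of muscle and cuticle. RNA from whole animals mixes all tissues and any embryos they carry. In such RNA, fewer cells of a type and less RNA per cell cannot be told apart.

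The libraries held 20155590 to 20868651 counts in the Starved group and 20094864 to 22837203 in the Fed group. The adult markers went against the label: the 6 yolk genes vit-1 to vit-6 summed to 2.08 to 4.06 CPM (counts scaled to a common library size) in Starved and 1.74 to 2.96 CPM in Fed libraries, and 32 sperm genes to 0.992 to 1.93 CPM in Starved and 1.27 to 2.32 CPM in Fed. The 6 adult cuticle genes, col-19 among them, summed to no more than 1.86 CPM in any Starved and 2.77 CPM in any Fed library. By contrast 9 genes of the late embryonic sheath and apical matrix, such as noah-1 and fbn-1, summed to 3724 to 4115 CPM in Starved and 3735 to 4185 CPM in Fed libraries. A list of 9 larval moult genes, which also holds noah-1, summed to 2631 to 2840 CPM in Starved and 2610 to 2881 CPM in Fed libraries. On the first principal component, which held 26.2% of the variance, Starved 1 and Starved 5 lay farther from the Fed libraries (22.9 and 23.4) than the other 4 Starved libraries did (5.18 to 11.7), with the Fed libraries at -16.9 to -9.12. Counts of calls without Starved 1 and Starved 5 are therefore given beside the reported ones where they moved by over 1.5 times and either count was at least 3.

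Starved worms had 1564 genes with a higher and 1351 with a lower transcript level than Fed worms (edgeR quasi-likelihood test, Benjamini-Hochberg adjusted p under 0.05), which is 21.9% of the genes tested, 11.8% higher and 10.2% lower. Without Starved 1 and Starved 5 the lower count was 843. Scaling by library totals instead of trimmed means gave 1216 higher and 2012 lower, so that 37.7% of the calls were higher in place of 53.7%; this scaling lowered the median of all genes by 0.03 on the log2 scale. Most called differences were small: the median log2 fold change, Starved over Fed, was 0.27 among the genes that rose and -0.20 among those that fell. The 6 Starved libraries lay wholly above the 6 Fed libraries in 699 genes (5.26% of those tested) and wholly below them in 553 genes (4.16%). At least 1.5-fold differences were mostly increases, with 236 genes higher (1.78% of those tested) and 54 lower (0.406%). Without Starved 1 and Starved 5, 1.13% of 13481 genes tested were at least 1.5-fold higher, and with library totals 82 genes were at least 1.5-fold lower. Heat shock and ribosomal protein genes, 210 of those tested, made up 118 of the genes that rose and 8 of those that fell, and are left out from here on; 214 of the 1.5-fold increases and the 54 decreases lay outside them.

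**Figure D1:**
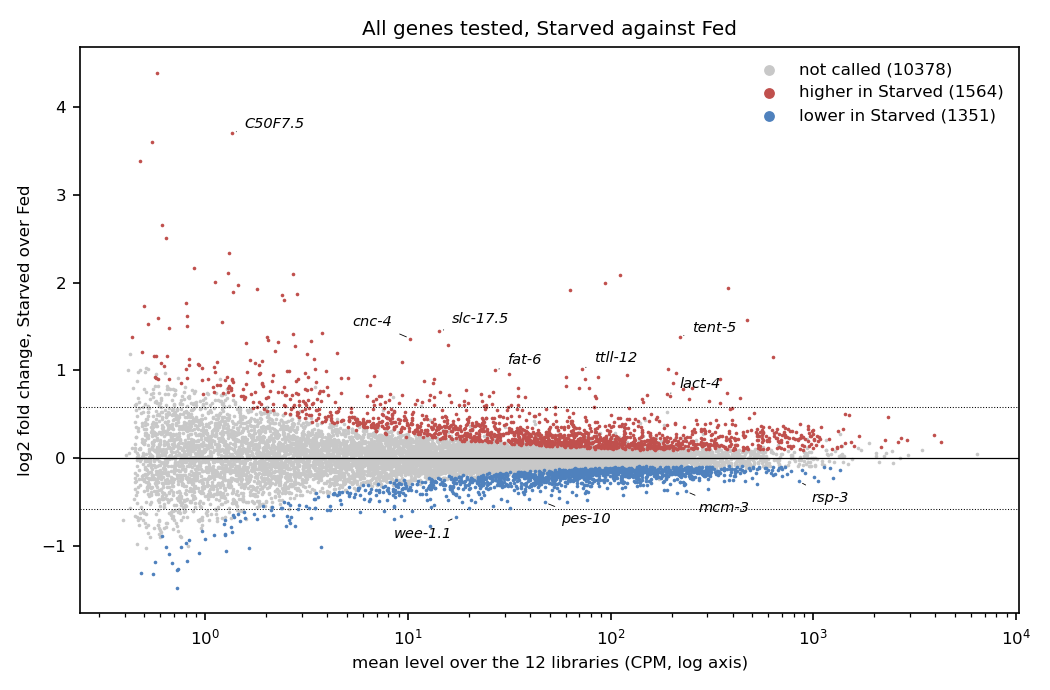
Each point is 1 of the 13293 genes tested, plotted by its mean level over the 12 libraries (CPM, log axis) and its log2 fold change, Starved over Fed; red points passed the test higher in Starved (1564), blue points lower in Starved (1351), and dotted lines mark a 1.5-fold difference. Increases reach farther from 0 than decreases, and no gene above 1000 CPM passed the 1.5-fold line.

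Differences of at least 1.5-fold made up a larger share of the genes below 10 CPM. Of 3678 genes averaging 1 to 10 CPM over the 12 libraries, 130 rose (3.53%) and 34 fell by that much. Of 5933 genes of 10 to 100 CPM, 50 rose (0.843%) and 3 fell. Of 2524 genes of 100 to 1000 CPM, 22 rose (0.872%) and 0 fell, 9 of the 22 outside the heat shock and ribosomal genes. Of the 77 genes above 1000 CPM, 30 rose and 6 fell, all by less than 1.5-fold. Genes with only a sequence name, 5444 of those tested, had 584 increases and 434 decreases, both smaller shares than over all genes (11.8% and 10.2%).

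In the values below, 3 levels in a row are the lowest, median and highest of the 6 libraries of a group, in CPM scaled by trimmed means; differences are log2 fold changes, Starved over Fed, ± standard error. Among genes of at least 10 CPM whose Starved and Fed libraries did not overlap, the highest log2 fold change was that of slc-17.5, a member of the anion transporter family SLC17. Its levels were 16.7, 20.1 and 27.8 CPM in the Starved libraries, against 5.82, 7.78 and 9.36 CPM in the Fed libraries (log2 fold change 1.45 ± 0.12, adjusted p = 6.88e-09). The antimicrobial peptide gene cnc-4, a caenacin, had 13.1, 14.7 and 16.6 CPM in the Starved libraries, against 5.03, 5.64 and 6.44 CPM in the Fed libraries (log2 fold change 1.36 ± 0.09, adjusted p = 1.79e-11). In neither gene did a Starved library reach down to any Fed one. The stearoyl-CoA desaturase gene fat-6, which makes oleic acid from stearic acid, had 30.5, 35.2 and 43.3 CPM in the Starved libraries, against 15.1, 17.3 and 21.8 CPM in the Fed libraries (log2 fold change 1.0001 ± 0.09, adjusted p = 4.53e-08). The tubulin ligase-like gene ttll-12 had 80.8, 89.5 and 118 CPM in the Starved libraries, against 44.5, 46.6 and 53.7 CPM in the Fed libraries (log2 fold change 1.02 ± 0.10, adjusted p = 1.06e-05). Levels of tent-5, a cytoplasmic poly(A) polymerase gene, were 247, 305 and 431 CPM in the Starved libraries, against 97.7, 124 and 141.6 CPM in the Fed libraries (log2 fold change 1.39 ± 0.14, adjusted p = 5.52e-05). In tent-5 the Starved libraries were themselves widely spread, but the lowest still lay above the highest Fed library.

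The other increases at this end included a calponin-like gene, cpn-4, with 14.6, 16.6 and 20.4 CPM in the Starved libraries, against 8.14, 9.37 and 10.96 CPM in the Fed libraries (log2 fold change 0.85 ± 0.10, adjusted p = 2.08e-07), and lact-4, which encodes a beta-lactamase domain, with 215, 224 and 285 CPM in the Starved libraries, against 131, 137 and 163 CPM in the Fed libraries (log2 fold change 0.73 ± 0.08, adjusted p = 2.15e-05). A pair of cytochrome P450 genes were among them: cyp-13B1 had 75.6, 89.8 and 96.9 CPM in the Starved libraries, against 47.6, 50.2 and 57.1 CPM in the Fed libraries (log2 fold change 0.80 ± 0.05, adjusted p = 1.79e-11). Levels of cyp-25A3 were 20.9, 24.4 and 27.9 CPM in the Starved libraries, against 11.3, 15.2 and 16.3 CPM in the Fed libraries (log2 fold change 0.77 ± 0.09, adjusted p = 1.89e-07). The groups lay apart in all 4 of these genes. The 6 genes with only a sequence name completing the 15 were M05D6.3 (1.29 ± 0.20), Y38E10A.14 (1.099 ± 0.12), F19B2.5 (0.92 ± 0.11), T23F2.3 (0.90 ± 0.16), T10B5.8 (0.76 ± 0.13) and F25E5.8 (0.73 ± 0.08, all log2 fold changes ± SE). Just below them by fold came lea-1, a late embryogenesis abundant protein gene known for tolerance of drying, chosen after its values were seen because it had the lowest p of all genes tested. It had 174, 186 and 206 CPM in the Starved libraries, against 106, 114 and 121 CPM in the Fed libraries (log2 fold change 0.72 ± 0.04, adjusted p = 9.31e-13).

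At the other end, decreases were smaller. The lowest log2 fold change was that of Y106G6H.9, with 7.94, 9.598 and 10.9 CPM in the Starved libraries, against 14.1, 16.2 and 19.1 CPM in the Fed libraries (log2 fold change -0.78 ± 0.09, adjusted p = 6.89e-07), followed by T27E9.6 (log2 fold change -0.70 ± 0.11, adjusted p = 1.72e-05). The Wee1 kinase gene wee-1.1, which encodes an inhibitor of the mitotic kinase CDK1, had 10.8, 13.6 and 14.98 CPM in the Starved libraries, against 18.3, 21.98 and 23.2 CPM in the Fed libraries (log2 fold change -0.67 ± 0.08, adjusted p = 9.12e-07). Its Starved libraries all lay under the lowest Fed library. Of the 15 lowest, 3 were genes of the early embryo. The transcript pes-10, a standard marker of the first zygotic transcription, had 34.9, 39.5 and 43.7 CPM in the Starved libraries, against 52.03, 54.2 and 61.8 CPM in the Fed libraries (log2 fold change -0.51 ± 0.06, adjusted p = 2.01e-07). Of the genes named for zygotic transcription dependent on the factor SKN-1, sdz-16 had 14.4, 16.3 and 17.9 CPM in the Starved libraries, against 21.2, 23.9 and 25.9 CPM in the Fed libraries (log2 fold change -0.57 ± 0.07, adjusted p = 1.51e-06). Levels of sdz-15 were 5.20, 6.73 and 9.22 CPM in the Starved libraries, against 9.36, 10.2 and 11.1 CPM in the Fed libraries (log2 fold change -0.55 ± 0.11, adjusted p = 0.000592). The F-box gene fbxb-31 had 6.72, 7.84 and 10.3 CPM in the Starved libraries, against 11.3, 12.5 and 13.5 CPM in the Fed libraries (log2 fold change -0.60 ± 0.10, adjusted p = 3.74e-05). The remaining 8 genes have only a sequence name, and their log2 fold changes lay between -0.67 for C38D9.8 and -0.50 for Y116A8C.19.

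**Figure D2:**
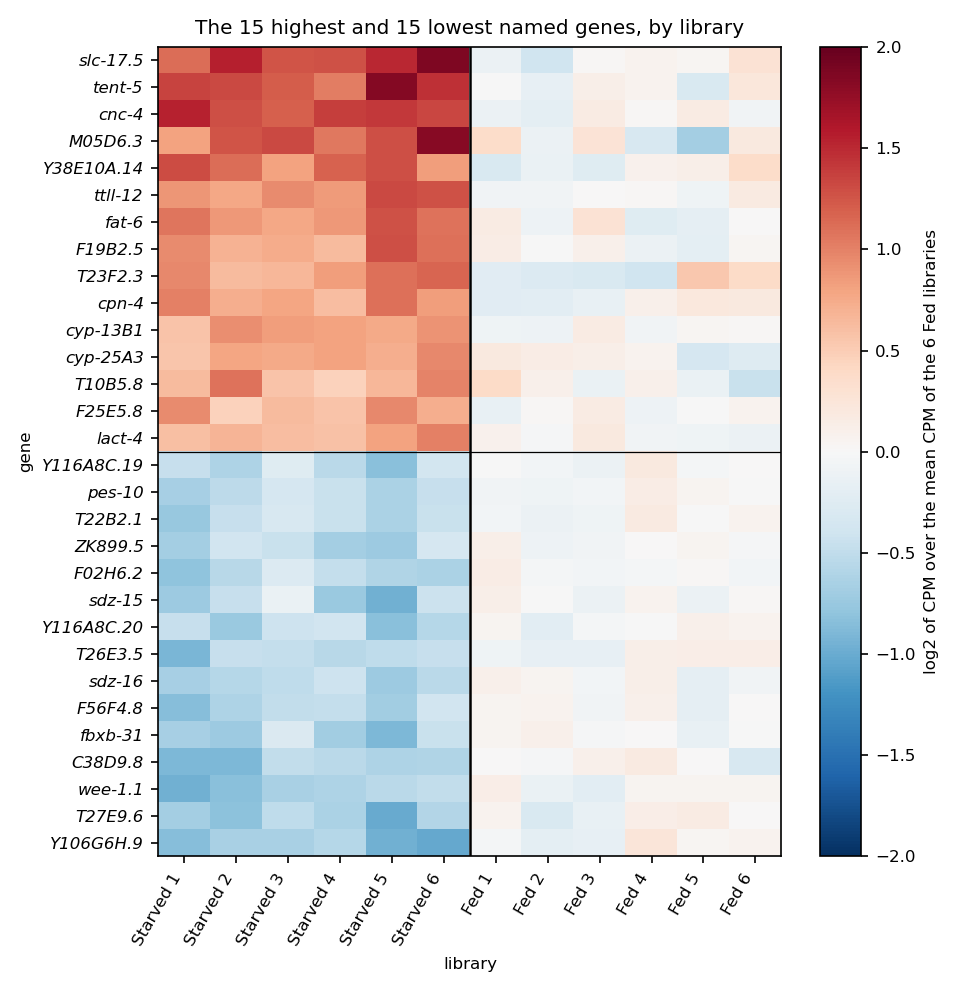
Rows are the 15 genes with the highest and the 15 with the lowest log2 fold change among called genes of at least 10 CPM whose groups do not overlap; columns are the 6 Starved and the 6 Fed libraries; colour is the log2 of the CPM over the Fed mean. Every Starved library is above the Fed mean in the upper 15 genes and below it in the lower 15, and the upper block is the deeper in colour.

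Families of genes were then counted, each as the number of tested members that passed the test in either direction, beside the shares over all genes (11.8% higher, 10.2% lower). These shares are not matched for level. Calls in either direction made up 11.1% of genes of 1 to 10 CPM, 24.2% of those of 10 to 100 CPM and 39.0% of those of 100 to 1000 CPM. Whether a family's share of calls differs from that of other genes of like level was not tested. Many cell division genes fell. DNA replication genes had 23 decreases and 0 increases among 39 tested (58.97% lower; median log2 fold change -0.17, against 0.00 over all genes). Cyclins and cell cycle kinases had 17 decreases and 1 increase among 45, and the kinetochore, condensin and cohesin genes 18 and 0 among 43. Without Starved 1 and Starved 5 these 3 families had 15, 10 and 10 decreases. With library totals the cyclin and kinase list had 26.

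The replicative helicase gene mcm-3 had 186, 205 and 225 CPM in the Starved libraries, against 253, 266 and 282 CPM in the Fed libraries (log2 fold change -0.38 ± 0.04, adjusted p = 7.57e-08). The origin recognition gene orc-3 had 48.2, 60.9 and 64.6 CPM in the Starved libraries, against 68.7, 70.0 and 76.5 CPM in the Fed libraries (log2 fold change -0.26 ± 0.05, adjusted p = 0.000668). Levels of pole-2, a subunit of DNA polymerase epsilon, were 43.8, 50.1 and 53.96 CPM in the Starved libraries, against 57.003, 61.01 and 66.4 CPM in the Fed libraries (log2 fold change -0.28 ± 0.05, adjusted p = 0.000279). Starved libraries lay below all Fed libraries in each of the 3. The phosphatase gene cdc-25.1, whose product activates CDK1, had 81.6, 89.9 and 95.4 CPM in the Starved libraries, against 102, 109 and 114 CPM in the Fed libraries (log2 fold change -0.28 ± 0.04, adjusted p = 1.81e-05). The condensin subunit gene capg-2 had 124, 146 and 159 CPM in the Starved libraries, against 167, 175 and 178 CPM in the Fed libraries (log2 fold change -0.28 ± 0.05, adjusted p = 0.000296). The kinesin gene zen-4, needed for the final separation of dividing cells, had 245, 286 and 295 CPM in the Starved libraries, against 313, 318 and 321 CPM in the Fed libraries (log2 fold change -0.20 ± 0.04, adjusted p = 0.000496). The groups of these 3 genes did not overlap either. The single increase in the cyclin and kinase list was cki-1, which encodes an inhibitor of cyclin-dependent kinases; its levels were 166, 186 and 191 CPM in the Starved libraries, against 139, 151 and 167 CPM in the Fed libraries (log2 fold change 0.26 ± 0.04, adjusted p = 4.04e-05), with a slight overlap. The lowest log2 fold change of the same list was that of wee-1.1, given above, whose product also inhibits a kinase of the cycle. Both ribonucleotide reductase genes, which supply deoxynucleotides, fell as well: rnr-1 had log2 fold change -0.17 ± 0.04, adjusted p = 0.00180 and rnr-2 log2 fold change -0.18 ± 0.04, adjusted p = 0.00107. They were among 6 decreases and 1 increase in 24 genes of nucleotide synthesis, with 3 decreases without Starved 1 and Starved 5.

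Genes of the nucleus and of RNA processing also had more decreases than increases. Nuclear pore proteins and transport receptors had 17 decreases and 1 increase among 38 (44.7% lower), and 9 decreases without Starved 1 and Starved 5. The nucleoporin gene npp-8 had 187, 208 and 231 CPM in the Starved libraries, against 246, 259 and 268 CPM in the Fed libraries (log2 fold change -0.30 ± 0.04, adjusted p = 4.10e-06). Levels of imb-2, an import receptor gene of the transportin kind, were 186, 197 and 220.5 CPM in the Starved libraries, against 234, 242 and 247 CPM in the Fed libraries (log2 fold change -0.28 ± 0.04, adjusted p = 7.87e-06). Both kept the groups apart. Splicing factors had 18 decreases and 4 increases among 69, and 2 increases with library totals. The abundant SR protein gene rsp-3 had 721, 764 and 823 CPM in the Starved libraries, against 884, 925 and 964 CPM in the Fed libraries (log2 fold change -0.27 ± 0.04, adjusted p = 6.48e-06), the small ribonucleoprotein gene snrp-27 63.3, 71.0 and 78.2 CPM in the Starved libraries, against 81.3, 88.7 and 95.9 CPM in the Fed libraries (log2 fold change -0.32 ± 0.05, adjusted p = 2.33e-05). The Sm-like genes lsm-5 and lsm-6 and the muscle splicing factor gene sup-12 were among the increases (log2 fold changes 0.26, 0.28 and 0.14). The lsm-6 call was lost on leaving out several of the libraries one at a time (highest adjusted p 0.118) and without Starved 1 and Starved 5 (adjusted p = 0.152). Of 58 SET and Jumonji domain genes, which write and erase histone methylation, 16 fell and 4 rose; the decreases numbered 9 without Starved 1 and Starved 5, and 9 without Fed 2. The highest increase there was set-18, with 194, 214 and 237 CPM in the Starved libraries, against 157, 164 and 182 CPM in the Fed libraries (log2 fold change 0.37 ± 0.04, adjusted p = 2.57e-07), and the deepest decrease jmjd-3.3 (log2 fold change -0.42 ± 0.10, adjusted p = 0.00211). RNA polymerase II and Mediator subunits had 7 decreases and 1 increase among 38, the increase being the Mediator gene mdt-27 (0.16 ± 0.04); the decreases numbered 3 without Starved 1 and Starved 5 and 12 with library totals.

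Genes of SCF ubiquitin ligases had more decreases than increases. In these enzymes a cullin carries Skp1 and an F-box protein that picks the target; worms have a large and fast-evolving set of F-box and Skp1-related genes. Skp1-related genes and cullins had 12 decreases and 1 increase among 24 (50% lower). The scaffold gene cul-1 had 153, 163 and 188 CPM in the Starved libraries, against 205, 213 and 225 CPM in the Fed libraries (log2 fold change -0.36 ± 0.04, adjusted p = 2.92e-07). The Skp1-related skr-7 had 177, 207 and 235 CPM in the Starved libraries, against 247, 257 and 264 CPM in the Fed libraries (log2 fold change -0.31 ± 0.05, adjusted p = 3.26e-05). Their groups lay apart; the increase was skr-1, a general Skp1 gene (log2 fold change 0.11 ± 0.03, adjusted p = 0.0179), whose call was lost with library totals (adjusted p = 0.0873). F-box genes had 35 decreases and 5 increases among 224 (15.6% lower), but 12 decreases without Starved 1 and Starved 5, 23 without Fed 1 and 22 without Fed 4. The F-box increases numbered 3 without Starved 1 and Starved 5, 3 without Fed 2 or Starved 2, and 2 without Fed 3, Fed 5, Fed 6 or Starved 5. Their clearest decreases, besides fbxb-31, were fbxb-17, with 19.9, 25.2 and 27.7 CPM in the Starved libraries, against 31.4, 33.5 and 35.1 CPM in the Fed libraries (log2 fold change -0.46 ± 0.07, adjusted p = 1.18e-05), and the weakly expressed fbxa-104 (log2 fold change -1.03 ± 0.22, adjusted p = 0.000927). Several of these genes are close copies, so that reads may be shared among them and single values are uncertain. Deubiquitinases had 6 decreases and 0 increases among 21, otub-3 (log2 fold change -0.33 ± 0.04, adjusted p = 1.88e-06) and usp-4 (log2 fold change -0.26 ± 0.04, adjusted p = 7.56e-06) among them. Ubiquitin-conjugating enzymes were split 3 higher and 3 lower among 23, near the background; ubc-9, the enzyme for the modifier SUMO, fell (log2 fold change -0.26 ± 0.04, adjusted p = 1.00e-05).

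The Wnt, Notch and TGF-beta pathways, which pattern the embryo, had more decreases than increases, with most of their genes not called. In the Wnt pathway 9 of 26 genes fell and 0 rose. The Frizzled receptor gene mom-5 had 138, 176 and 179 CPM in the Starved libraries, against 197, 199 and 202 CPM in the Fed libraries (log2 fold change -0.26 ± 0.05, adjusted p = 0.000393). The beta-catenin gene wrm-1 had 106, 118.97 and 123 CPM in the Starved libraries, against 124, 132 and 137 CPM in the Fed libraries (log2 fold change -0.16 ± 0.04, adjusted p = 0.00458). Neither gene's groups overlapped. In the Notch pathway 6 of 19 genes fell and 2 rose. The ligand gene dsl-2 had 88.9, 100.3 and 106 CPM in the Starved libraries, against 118, 131 and 146 CPM in the Fed libraries (log2 fold change -0.42 ± 0.05, adjusted p = 2.38e-07). Levels of lag-1, the DNA-binding factor that Notch acts through, were 118.7, 127 and 135 CPM in the Starved libraries, against 148, 152.3 and 159.9 CPM in the Fed libraries (log2 fold change -0.27 ± 0.04, adjusted p = 4.77e-06). The pathway's increases were a ligand gene, dsl-3 (log2 fold change 0.19 ± 0.05, adjusted p = 0.00571), and osm-11, which encodes a secreted co-ligand, with 11.6, 15.8 and 18.7 CPM in the Starved libraries, against 8.83, 9.55 and 11.1 CPM in the Fed libraries (log2 fold change 0.66 ± 0.10, adjusted p = 1.81e-05). TGF-beta genes had 4 decreases and 0 increases among 21, and 2 decreases without Starved 1 and Starved 5; daf-1, a type I receptor gene of the dauer branch, had log2 fold change -0.14 ± 0.04, adjusted p = 0.0101, and its ligand gene daf-7, near 2 CPM, had log2 fold change -0.69 ± 0.22, adjusted p = 0.0211, a call that was lost without some single libraries (highest adjusted p 0.0692).

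Transcription factors were counted by class. T-box and forkhead genes had 8 decreases and 1 increase among 31 (25.8% lower), and 4 decreases without Starved 1 and Starved 5. The T-box gene tbx-37, an early factor of the lineage that makes the anterior pharynx, had 5.71, 6.36 and 7.68 CPM in the Starved libraries, against 7.74, 8.44 and 9.64 CPM in the Fed libraries (log2 fold change -0.39 ± 0.10, adjusted p = 0.00570). Homeobox genes had 10 decreases and 2 increases among 82 (12.2% lower, near the background of all genes, and 2.44% higher, under it). The decreases numbered 5 without Starved 1 and Starved 5 and 17 with library totals. Of 12 GATA-type genes 3 fell, led by elt-1, which specifies the skin, with 105, 112.9 and 117 CPM in the Starved libraries, against 127, 130.1 and 133 CPM in the Fed libraries (log2 fold change -0.22 ± 0.04, adjusted p = 7.50e-05). The skin factor gene lin-26, from the hypodermis markers, fell too, with 158, 173 and 188 CPM in the Starved libraries, against 197, 203 and 211 CPM in the Fed libraries (log2 fold change -0.23 ± 0.04, adjusted p = 5.25e-05). Starved and Fed levels of elt-1 and lin-26 did not overlap. Krueppel-like and numbered zinc finger genes had 6 decreases and no increase among 31 (3 decreases without Starved 1 and Starved 5), with sptf-3 at 144, 157 and 162 CPM in the Starved libraries, against 172, 184 and 189 CPM in the Fed libraries (log2 fold change -0.23 ± 0.04, adjusted p = 3.90e-05).

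Among bZIP genes there were 10 increases and 1 decrease among 26 (38.5% higher), and 6 increases without Starved 1 and Starved 5. The AP-1 factor gene fos-1 had 50.3, 54.6 and 62.7 CPM in the Starved libraries, against 39.4, 43.7 and 48.9 CPM in the Fed libraries (log2 fold change 0.33 ± 0.06, adjusted p = 0.000136). The stress factor gene atf-4 had 95.4, 105 and 119.1 CPM in the Starved libraries, against 78.1, 85.5 and 95.7 CPM in the Fed libraries (log2 fold change 0.32 ± 0.05, adjusted p = 6.48e-05), and cebp-1, of the C/EBP kind, log2 fold change 0.40 ± 0.08, adjusted p = 0.000596. The decrease was crh-1, the worm CREB gene, with 62.6, 67.1 and 73.6 CPM in the Starved libraries, against 73.7, 79.9 and 85.2 CPM in the Fed libraries (log2 fold change -0.23 ± 0.05, adjusted p = 0.000770). The fos-1 and crh-1 groups lay apart, and those of atf-4 overlapped at their edges. Basic helix-loop-helix genes had 6 increases and 2 decreases among 35, and 5 decreases with library totals. The Max-like gene mxl-3, known in worms as a regulator of lysosomal lipase genes, had 34.1, 37.8 and 39.8 CPM in the Starved libraries, against 22.7, 25.1 and 26.3 CPM in the Fed libraries (log2 fold change 0.59 ± 0.06, adjusted p = 1.97e-08). The Mad-like mdl-1 had 60.97, 75.7 and 76.7 CPM in the Starved libraries, against 53.9, 56.2 and 56.9 CPM in the Fed libraries (log2 fold change 0.39 ± 0.05, adjusted p = 1.48e-06). Starved libraries of mxl-3 and mdl-1 all lay above the Fed ones. The decreases included ref-1, an early embryonic target of Notch (log2 fold change -0.29 ± 0.06, adjusted p = 0.000989). Nuclear hormone receptors, the largest class with 183 tested, had 15 increases and 6 decreases (8.20% and 3.28%), shares under the background; without Fed 4, Starved 1 or Starved 5 the increases numbered 9, and without Starved 1 or Starved 3 the decreases numbered 11 and 10. Without Starved 1 and Starved 5 together they numbered 7 increases, and with library totals 14 decreases. Their clearest increase was nhr-17, with 71.3, 75.0 and 82.5 CPM in the Starved libraries, against 50.9, 53.3 and 56.01 CPM in the Fed libraries (log2 fold change 0.51 ± 0.05, adjusted p = 5.05e-09).

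**Figure D3:**
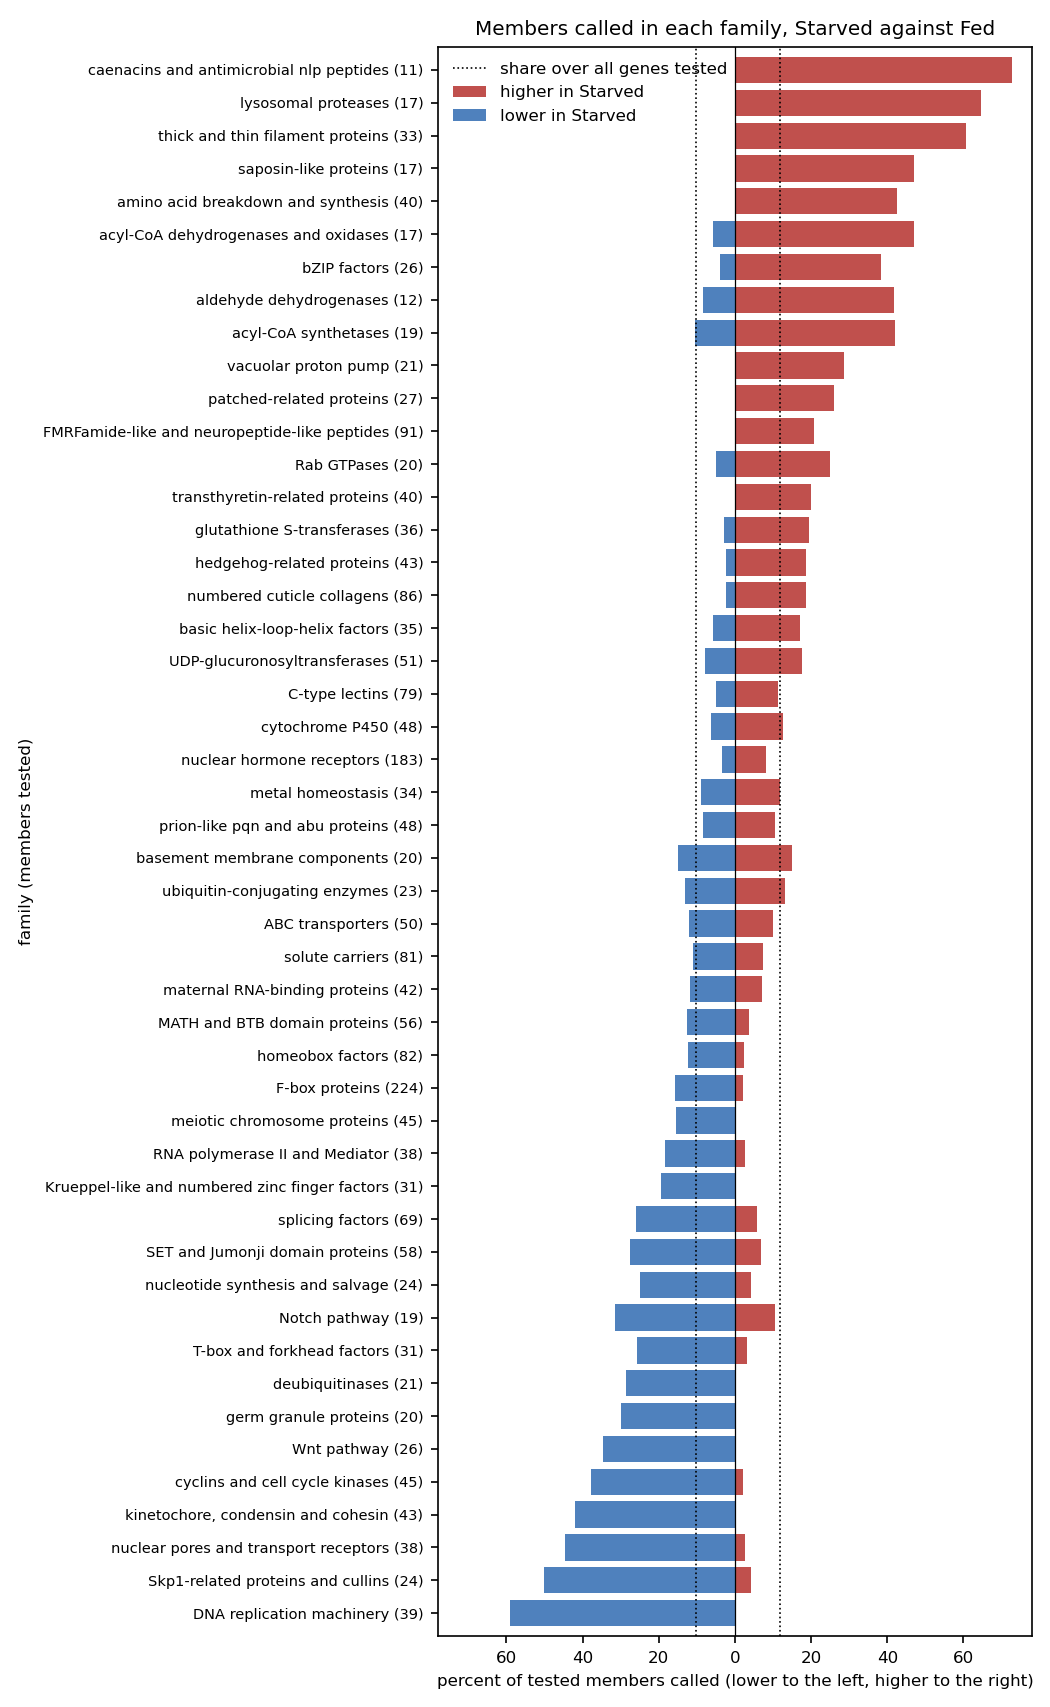
Bars give the percent of a family's tested members that passed the test, higher in Starved to the right and lower in Starved to the left, for the 48 families with at least 10 tested and 6 called members; the number tested stands beside each name and dotted lines mark the shares over all genes (11.8% and 10.2%). Antimicrobial peptides, lysosomal proteases and filament proteins stand at the top, and DNA replication, Skp1-related proteins and nuclear pores at the bottom.

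Germline and maternal genes were counted in several lists. Germ granule genes had 6 decreases and 0 increases among 20 (30% lower). The granule gene meg-1 had 52.8, 55.5 and 66.8 CPM in the Starved libraries, against 68.7, 77.01 and 84.4 CPM in the Fed libraries (log2 fold change -0.43 ± 0.06, adjusted p = 1.88e-06), its relative meg-2 log2 fold change -0.43 ± 0.08, adjusted p = 0.000242, and the helicase gene glh-3 20.1, 23.4 and 26.4 CPM in the Starved libraries, against 26.9, 29.7 and 31.98 CPM in the Fed libraries (log2 fold change -0.33 ± 0.07, adjusted p = 0.000685). Meiotic chromosome genes had 7 decreases and 0 increases among 45, and 3 decreases without Starved 1 and Starved 5; the synaptonemal complex gene syp-6 had 36.3, 42.1 and 50.99 CPM in the Starved libraries, against 54.2, 57.4 and 63.2 CPM in the Fed libraries (log2 fold change -0.42 ± 0.06, adjusted p = 1.19e-05). Maternal RNA-binding proteins were split, 3 higher and 5 lower among 42, shares near or under the background; with library totals no member was called higher, and without Starved 3 there were 10 decreases. The lists of germline and of oocyte markers had no call among 11 and 13 tested genes.

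Stage and tissue markers were followed as summed levels. Of 16 early zygotic genes, 8 fell and none rose (median log2 fold change -0.29). Their sum was 247, 289 and 323 CPM in the Starved libraries, against 342, 345 and 374 CPM in the Fed libraries. All 6 Starved libraries were below all 6 Fed ones, with Starved 1 and Starved 5 lowest. The body wall muscle markers summed to 4073, 4468 and 5477 CPM in the Starved libraries, against 3784, 3917 and 3986 CPM in the Fed libraries, and 9 of 10 rose. There every Starved library was above every Fed one, with Starved 1 and Starved 5 highest. Hypodermis markers summed to 8171, 8729.9 and 9802 CPM in Starved and 7419, 7601 and 8131 CPM in Fed libraries, again with no overlap. Most of the hypodermis sum came from the collagen genes sqt-3 and dpy-17, which rose. Of the 10 tested hypodermis markers 3 rose and 1, lin-26, fell. The intestine, neuron and pharynx sums overlapped, with 3 of 10, 2 of 11 and 0 of 7 tested markers higher and none lower. The part of these marker levels in the family counts was not tested.

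**Figure D4:**
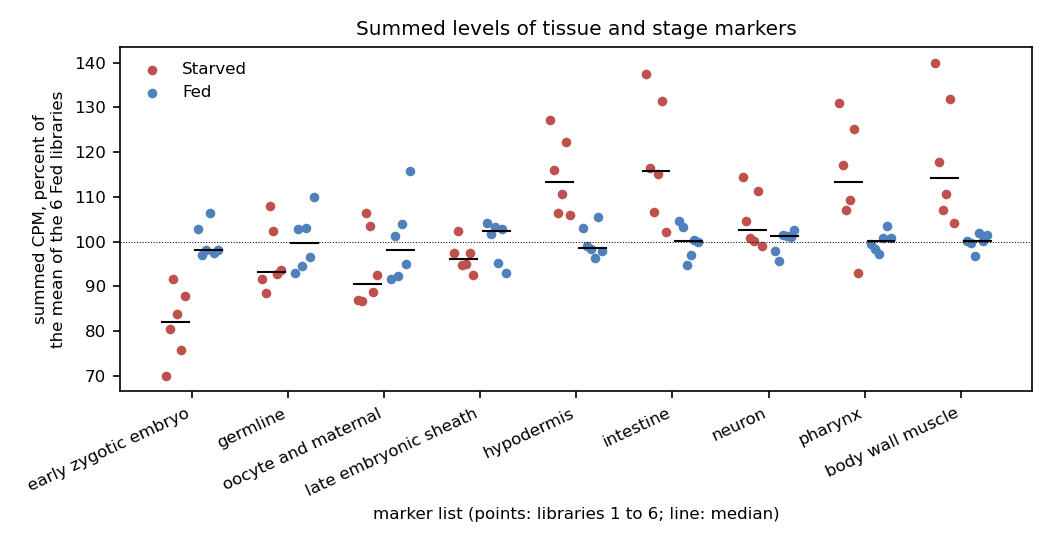
Each point is the summed CPM of a marker list in 1 library as a percent of the mean of the 6 Fed libraries, with Starved libraries (red) left of Fed libraries (blue) and a line at each median. Starved and Fed libraries do not overlap for the early zygotic, hypodermis and body wall muscle lists, and Starved 1 and Starved 5 are the extreme Starved libraries in the early zygotic and muscle lists. Most of the hypodermis sum comes from the collagen genes sqt-3 and dpy-17.

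Many muscle genes rose. Thick and thin filament proteins, which form the contractile apparatus, had 20 increases and 0 decreases among 33 (60.6% higher; median log2 fold change 0.21), but 13 increases without Fed 2 and 11 without Starved 1 and Starved 5. Body wall myosin, unc-54, had 660.0, 833 and 1011 CPM in the Starved libraries, against 623, 671 and 686 CPM in the Fed libraries (log2 fold change 0.34 ± 0.09, adjusted p = 0.0181). The other myosin heavy chain gene of that muscle, myo-3, had 491, 567 and 670.0 CPM in the Starved libraries, against 455, 478 and 499 CPM in the Fed libraries (log2 fold change 0.28 ± 0.06, adjusted p = 0.00408). These groups overlapped at their edges. Both genes are also among the body wall muscle markers given above, so the marker and family counts rest partly on the same genes. The troponin T gene tnt-2 had 20.8, 22.2 and 31.01 CPM in the Starved libraries, against 16.2, 18.8 and 21.2 CPM in the Fed libraries (log2 fold change 0.42 ± 0.10, adjusted p = 0.00483), again with a small overlap. Muscle attachment and dense body genes had 4 increases and no decrease among 17, but 9 increases without Starved 6, 2 with library totals and 0 without Starved 1 and Starved 5. Tubulins (1 higher and 1 lower of 16), intermediate filaments (2 and 1 of 13) and kinesins and dyneins (1 and 3 of 29) stayed near or under the background. Intermediate filament increases numbered 5 without Starved 3 and 6 without Starved 6, and kinesin and dynein decreases 5 without Fed 6 or Starved 6. With library totals 4 tubulins and 6 kinesins and dyneins were lower.

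Genes of secreted peptides were counted in several lists. The caenacins and the antimicrobial nlp genes, which skin cells are known to switch on upon infection or wounding, had 8 increases and no decrease among 11 tested of 22, with a median log2 fold change of 0.43. Beside cnc-4, nlp-29 had 7.51, 8.89 and 11.8 CPM in the Starved libraries, against 4.70, 5.63 and 6.36 CPM in the Fed libraries (log2 fold change 0.70 ± 0.12, adjusted p = 5.66e-05). The more abundant nlp-31, chosen after its values were seen, had 36.9, 40.2 and 46.4 CPM in the Starved libraries, against 28.4, 31.1 and 37.9 CPM in the Fed libraries (log2 fold change 0.33 ± 0.07, adjusted p = 0.000592). The nlp-29 groups lay apart and the nlp-31 groups overlapped slightly. FMRFamide-like and neuropeptide-like genes, among which the antimicrobial nlp genes are counted again, had 19 increases and no decrease among 91, and 9 increases without Starved 1 and Starved 5. Insulin-like peptide genes had 3 increases among 13 tested of 38; ins-18, a peptide that antagonises the insulin receptor in worms, had 2.53, 3.64 and 4.71 CPM in the Starved libraries, against 1.88, 2.52 and 3.11 CPM in the Fed libraries (log2 fold change 0.56 ± 0.17, adjusted p = 0.0157). Lysozymes had 3 increases among 7, with lys-8 at log2 fold change 0.33 ± 0.08, adjusted p = 0.00193. C-type lectins had 9 increases and 4 decreases among 79 (11.4% higher, near the background, and 5.06% lower, under it).

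Other gene families of neurons had few calls. Chemoreceptors had 2 increases and 1 decrease among 93 tested of 1258 in the table, most members being at or near 0. Ligand-gated channels had 3 and 1 among 85, potassium channels 4 and 1 among 63, cilia genes 3 and 1 among 49, and synaptic vesicle genes 1 and 2 among 36. Ligand-gated channels had 3 decreases, potassium channels 2 increases and cilia genes 1 increase without Starved 1 and Starved 5. Ligand-gated channel increases numbered 6 without Starved 3 and 5 without Starved 6.

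Many lysosomal and metabolic genes rose. Aspartic and cysteine proteases of the lysosome had 11 increases and no decrease among 17 (64.7% higher). The aspartic protease gene asp-1, an intestinal gene, had 363, 439 and 548 CPM in the Starved libraries, against 316, 349 and 365 CPM in the Fed libraries (log2 fold change 0.39 ± 0.09, adjusted p = 0.0108). This gene is also among the intestine markers that rose, so the marker and family counts share it. Its level was highest in Starved 1 and Starved 5 (548 and 519 CPM), as was the intestine sum (1467 and 1403 CPM). Saposin-like genes, whose products bind lipids in lysosomes or act on bacteria, had 8 increases and no decrease among 17, but 5 increases without Starved 1, 5 without Starved 5, 4 without both and 5 with library totals; spp-14 had 15.2, 17.97 and 20.5 CPM in the Starved libraries, against 10.7, 13.4 and 16.5 CPM in the Fed libraries (log2 fold change 0.44 ± 0.09, adjusted p = 0.00106). The asp-1 and spp-14 groups overlapped at their edges. Vacuolar proton pump genes, which acidify the lysosome, had 6 increases and no decrease among 21 (3 without Starved 1 and Starved 5, and 3 with library totals), with vha-9 at 156, 168 and 183 CPM in the Starved libraries, against 125, 140.1 and 145 CPM in the Fed libraries (log2 fold change 0.29 ± 0.04, adjusted p = 1.90e-05).

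Enzymes of amino acid breakdown and synthesis had 17 increases and no decrease among 40 (42.5% higher), and 11 increases without Starved 5. A pair of steps of tyrosine breakdown were among them: the aminotransferase gene tatn-1 had 22.3, 29.4 and 30.7 CPM in the Starved libraries, against 15.3, 19.4 and 22.5 CPM in the Fed libraries (log2 fold change 0.56 ± 0.10, adjusted p = 0.000214). The dioxygenase gene hpd-1 had 105, 114 and 130.5 CPM in the Starved libraries, against 80.4, 82.6 and 86.2 CPM in the Fed libraries (log2 fold change 0.50 ± 0.05, adjusted p = 1.81e-08). The hpd-1 groups lay well apart and those of tatn-1 nearly so. The asparagine synthetase gene asns-2 had 416, 462 and 564 CPM in the Starved libraries, against 277, 318 and 357 CPM in the Fed libraries (log2 fold change 0.57 ± 0.08, adjusted p = 0.000398), again with the groups apart.

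In fat metabolism, acyl-CoA dehydrogenases and oxidases had 8 increases and 1 decrease among 17, and acyl-CoA synthetases 8 and 2 among 19. The peroxisomal oxidase gene acox-1.1 had 54.1, 60.8 and 63.9 CPM in the Starved libraries, against 42.7, 46.6 and 51.7 CPM in the Fed libraries (log2 fold change 0.35 ± 0.05, adjusted p = 1.68e-05). Levels of acdh-7, an acyl-CoA dehydrogenase gene, were 299.6, 322 and 341 CPM in the Starved libraries, against 251, 257 and 298 CPM in the Fed libraries (log2 fold change 0.28 ± 0.04, adjusted p = 7.87e-06). The synthetase gene acs-2, known in worms as a fasting-induced gene of mitochondrial oxidation, had 9.97, 12.1 and 16.6 CPM in the Starved libraries, against 7.57, 8.61 and 10.5 CPM in the Fed libraries (log2 fold change 0.52 ± 0.11, adjusted p = 0.000863). Only the acs-2 groups overlapped among these 3 genes. Desaturases and elongases had 5 increases and no decrease among 13, 3 increases without Fed 2 and 3 with library totals; the enzymes of fat-2 and fat-3 act in polyunsaturated synthesis. Beside fat-6, fat-2 had 25.2, 27.6 and 32.5 CPM in the Starved libraries, against 16.4, 21.7 and 22.6 CPM in the Fed libraries (log2 fold change 0.46 ± 0.08, adjusted p = 0.000120). Levels of fat-3 were 44.1, 48.6 and 54.1 CPM in the Starved libraries, against 37.6, 39.6 and 43.5 CPM in the Fed libraries (log2 fold change 0.29 ± 0.05, adjusted p = 0.000245). The groups of fat-2 and of fat-3 lay apart. Lipid-binding proteins had 5 increases and no decrease among 13, with lbp-9 at 42.7, 48.1 and 54.1 CPM in the Starved libraries, against 31.6, 36.04 and 36.9 CPM in the Fed libraries (log2 fold change 0.47 ± 0.06, adjusted p = 9.42e-07). Both trehalose-6-phosphate synthase genes rose: tps-1 had 78.7, 87.2 and 99.0 CPM in the Starved libraries, against 61.2, 69.1 and 72.2 CPM in the Fed libraries (log2 fold change 0.38 ± 0.05, adjusted p = 3.51e-06). Levels of tps-2 were 88.0, 96.2 and 111.6 CPM in the Starved libraries, against 70.8, 73.3 and 76.2 CPM in the Fed libraries (log2 fold change 0.41 ± 0.05, adjusted p = 4.27e-07). Neither tps gene's groups overlapped. Lipases stood at 3 higher and 2 lower among 15 (33.3% called, against 21.9% over all genes). Solute carriers stood at 6 and 9 among 81, near or under the background, although slc-17.5 was a solute carrier and the sugar transporter gene swt-3 fell (log2 fold change -0.48 ± 0.07, adjusted p = 2.33e-05). Solute carrier increases numbered 3 without Fed 1, Fed 2, Starved 1 or Starved 5, 2 without Starved 1 and Starved 5 together, and 10 without Starved 6. There was 1 lipase increase without Starved 1 and Starved 5.

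**Figure D5:**
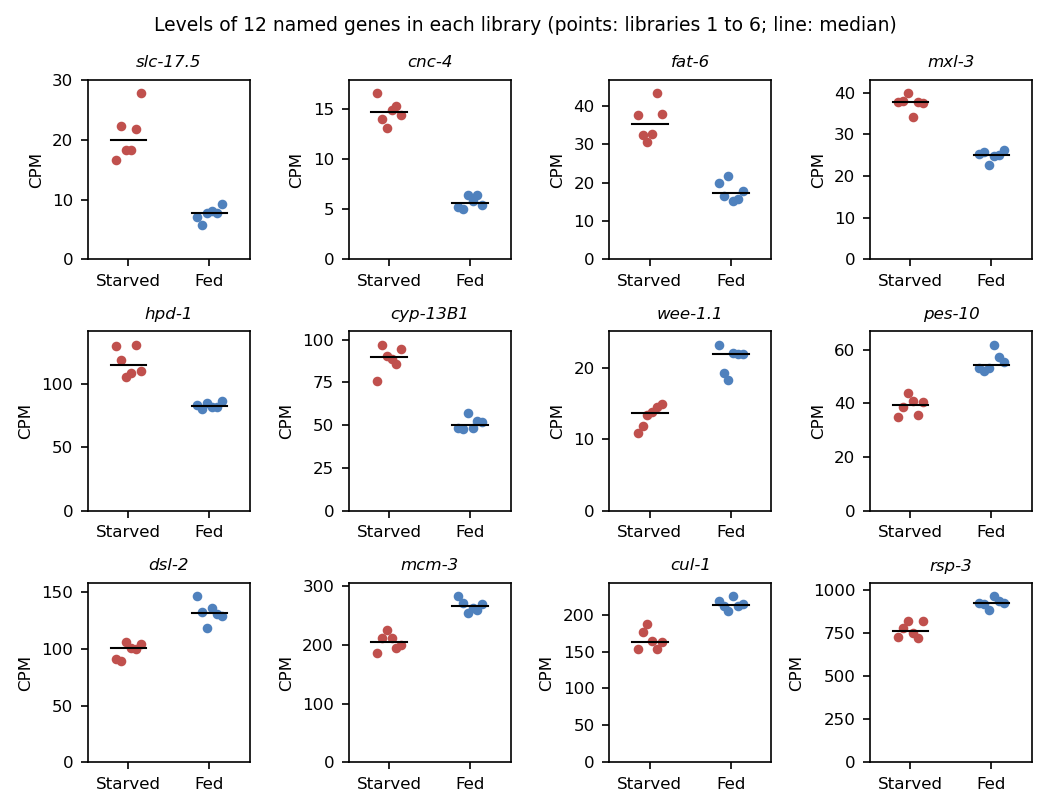
Levels (CPM, axis from 0) of 12 genes in the 6 Starved libraries (red, left in each panel) and the 6 Fed libraries (blue, right), with a line at the median. In the 6 genes slc-17.5, cnc-4, fat-6, mxl-3, hpd-1 and cyp-13B1 all Starved points lie above all Fed points, and in wee-1.1, pes-10, dsl-2, mcm-3, cul-1 and rsp-3 all lie below them.

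Detoxification families differed. Cytochrome P450 genes had 6 increases and 3 decreases among 48, and ABC transporters 5 and 6 among 50, near or under the background. UDP-glucuronosyltransferases had 9 and 4 among 51 (17.6% higher, 7.84% lower). Glutathione S-transferases had 7 and 1 among 36 (19.4% higher, 2.78% lower). Both these shares of increases were above the 11.8% over all genes. Without Fed 2, Fed 6 or Starved 5 the ABC transporter increases numbered 3. Without Starved 1 and Starved 5 the decreases numbered 1 in ABC transporters, 1 in cytochrome P450 genes and 2 in glucuronosyltransferases. Single genes stood out. The glucuronosyltransferase gene ugt-63 had 5.26, 5.80 and 7.96 CPM in the Starved libraries, against 1.98, 3.44 and 4.03 CPM in the Fed libraries (log2 fold change 0.91 ± 0.15, adjusted p = 3.93e-05), gst-5 had 15.3, 16.6 and 22.9 CPM in the Starved libraries, against 10.4, 12 and 13.5 CPM in the Fed libraries (log2 fold change 0.54 ± 0.09, adjusted p = 8.59e-05). The exporter gene mrp-3 had 22.1, 22.8 and 26.4 CPM in the Starved libraries, against 16.8, 18.9 and 19.9 CPM in the Fed libraries (log2 fold change 0.37 ± 0.07, adjusted p = 0.000333). None of these 3 genes had overlapping groups. In the family of hypoxia and hydrogen sulfide genes 3 of 11 rose and none fell. They were cysl-2, a cysteine synthase-like gene, with 109.6, 114 and 123 CPM in the Starved libraries, against 83.8, 89.6 and 94.0 CPM in the Fed libraries (log2 fold change 0.37 ± 0.04, adjusted p = 1.30e-07), the collagen prolyl hydroxylase gene phy-2, with 303, 319 and 354.35 CPM in the Starved libraries, against 238, 257 and 281 CPM in the Fed libraries (log2 fold change 0.32 ± 0.04, adjusted p = 1.25e-06), and egl-9, the oxygen-sensing hydroxylase gene that targets the hypoxia factor HIF-1, with 143, 145 and 156 CPM in the Starved libraries, against 125, 129.4 and 138 CPM in the Fed libraries (log2 fold change 0.17 ± 0.04, adjusted p = 0.00147). Starved libraries were above Fed libraries in all 3. The metallothionein gene mtl-1 had 2.12, 2.91 and 3.52 CPM in the Starved libraries, against 0.800, 1.39 and 2.44 CPM in the Fed libraries (log2 fold change 0.95 ± 0.22, adjusted p = 0.00189), with an overlap.

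Cuticle and surface genes showed modest excesses of increases. Numbered collagens had 16 increases and 2 decreases among 86 tested of 156, and 4 decreases without Starved 1 and Starved 5. Most strongly changed were weak ones: col-42 had 3.22, 3.54 and 4.49 CPM in the Starved libraries, against 0.601, 1.06 and 1.33 CPM in the Fed libraries (log2 fold change 1.86 ± 0.19, adjusted p = 4.79e-08). Collagens named for body shape had 5 increases among 16, and these included some of the most abundant transcripts in the table. The collagen gene dpy-17 had 2866, 3084 and 3440.4 CPM in the Starved libraries, against 2559, 2690.0 and 2827 CPM in the Fed libraries (log2 fold change 0.21 ± 0.04, adjusted p = 0.000531). Levels of sqt-3 were 3777, 4184 and 4812 CPM in the Starved libraries, against 3412, 3523 and 3823 CPM in the Fed libraries (log2 fold change 0.26 ± 0.05, adjusted p = 0.000493), with no overlap for dpy-17 and a slight one for sqt-3. Hedgehog-related genes, a family enlarged in nematodes, had 8 increases and 1 decrease among 43; grl-5 had 67.3, 74.0 and 86.7 CPM in the Starved libraries, against 54.4, 58.5 and 63.4 CPM in the Fed libraries (log2 fold change 0.34 ± 0.05, adjusted p = 2.63e-05). Patched-related genes had 7 increases and no decrease among 27, and 11 increases without Starved 6, with ptr-1 at log2 fold change 0.25 ± 0.05, adjusted p = 0.000459. Transthyretin-related genes had 8 increases among 40 (5 without Starved 1 and Starved 5), with ttr-15 at 18.9, 22.5 and 27.5 CPM in the Starved libraries, against 11.9, 15.1 and 18.5 CPM in the Fed libraries (log2 fold change 0.60 ± 0.10, adjusted p = 5.78e-05). Cuticlins (4 higher, 1 lower of 33, with 2 higher without Starved 1 and Starved 5), astacin proteases (2 and 0 of 21) and chitin genes (0 and 0 of 11) were near or under the background.

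Some genes near each other on a chromosome were called in the same direction. Among the 268 genes called with at least 1.5-fold change outside the heat shock and ribosomal lists, 254 could be placed in the order of protein-coding genes. Allowing up to 2 genes in between, 28 of them formed 11 groups that rose and 5 formed 2 groups that fell. How many groups would form from genes picked without regard to their position was not tested. The longest group was a run of 5 nspe genes, which encode short nematode-specific peptides, together with Y38E10A.14. There nspe-7 had 0.952, 2.24 and 2.95 CPM in the Starved libraries, against 0.282, 0.378 and 0.937 CPM in the Fed libraries (log2 fold change 2.11 ± 0.31, adjusted p = 1.01e-05). Levels of Y38E10A.14 were 10.3, 13.1 and 14.7 CPM in the Starved libraries, against 4.80, 5.84 and 7.64 CPM in the Fed libraries (log2 fold change 1.099 ± 0.12, adjusted p = 7.30e-08). Both genes kept the groups apart. In this run nspe-1 and nspe-2 lost their calls without Starved 1 and Starved 5 (adjusted p = 0.0955 and 0.101) and on leaving out some single libraries (highest adjusted p 0.0635 and 0.0933). Of the 33 genes in all these groups, 11 lost their call without Starved 1 and Starved 5. Another run was F53A9.6, F53A9.7 and F53A9.8, with log2 fold changes of 1.77 ± 0.42, 2.01 ± 0.31 and 1.35 ± 0.25. A further run joined M05D6.1, M05D6.3 and lact-4, with 1.33 ± 0.17, 1.29 ± 0.20 and 0.73 ± 0.08. Falling neighbours were nep-9, nep-10 and F18A12.7, the first 2 of them neprilysin-like peptidase genes, with -1.31 ± 0.41, -1.08 ± 0.29 and -0.74 ± 0.18; without Starved 1 and Starved 5 nep-10 lost its call (adjusted p = 0.0618). The other falling neighbours were his-38 and his-40, histone genes with near-identical copies; his-40 lost its call without Starved 1 and Starved 5 (adjusted p = 0.161) and on leaving out some single libraries. Copies such as the nspe genes may share reads, and reads of overlapping neighbours cannot be told apart without strand, so single values in these runs are uncertain.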

How the data were processed

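PolyA RNA was sequenced in 6 Starved and 6 Fed libraries. The authors deposited whole-number counts per gene; per the submitters' processing notes reads were trimmed with cutadapt, while aligner, counting program, strand setting and build were not given in the sources used here. Of 19454 gene IDs 19414 were paired with a symbol; the 40 without one held 0.471 to 0.676% of a library's counts. No sequence table came with the data, so none is printed.

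Counts were filtered with filterByExpr, scaled by trimmed means and compared with edgeR 4.0.16 (quasi-likelihood F test, two-sided, robust, R 4.3.3); p was adjusted over all 13293 genes tested by the Benjamini-Hochberg method, with a threshold of 0.05. Standard errors are the log2 fold change over the square root of F. The labels do not say that libraries came from separate cultures, so p measures the spread between these samples. Libraries held 20094864 to 22837203 counts; intervals on single counts were not used. Alternatives were limma voom 3.58.1, DESeq2 1.42.0 (Wald test), other scalings and filters, a replicate block, and leaving out libraries.

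The members and lists were chosen with earlier results of these data known, and a few symbols were moved between families after their values were seen. Named genes were the 15 highest and 15 lowest log2 fold changes among called genes of at least 10 CPM in either group without overlap (no more than 2 sharing a symbol stem), and, in each of 85 families, as many as 3 called members each way of at least 2 CPM in either group; for a family with no call, its most abundant tested member; and the marker genes. From these the text takes mainly genes whose calls held without each library. Neighbours were read from the order of protein-coding genes in a RefSeq table (assembly WBcel235), used for names and order alone.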

Additional observations from a re-analysis of the deposited data

Results flagged for a closer look

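In 3 of the 60 groups of 6 libraries checked for the 15 highest and 15 lowest named genes, 1 library stood apart from the other 5; chance gives about 1 in 20 groups. T26E3.5 had 8.16 CPM in Starved 1, against 10.5 CPM in the nearest other Starved library. F02H6.2 had 34.5 CPM in Fed 1, against 31.4 CPM in the nearest other Fed library. Y116A8C.19 had 24.95 CPM in Fed 4, against 21.8 CPM in the nearest. In none of these genes did the Starved and Fed libraries overlap.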

How the results depend on the processing

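Over the 21 alternatives to the reported fit (other scalings, filters and tools, left-out libraries), no gene called in the reported fit was called in the opposite direction, and none of the called named genes changed sign. The counts of 1564 higher and 1351 lower genes stayed within 1.5 times of their reported values except without Starved 1 and Starved 5, where 843 were lower (6.25% of 13481 tested, against 10.2%). Genes at least 1.5-fold higher, 1.78% of those tested, made up 1.13% without these libraries and 0.904% among 8629 genes averaging at least 10 CPM. Genes at least 1.5-fold lower, 0.406% of those tested, made up 0.0579% of the same 8629 genes, since most lie below that level, and 0.617% with library totals. Leaving out each library in turn gave 1213 to 1627 higher and 1079 to 1611 lower genes, and 187 to 267 higher and 44 to 71 lower at 1.5-fold. Apart from the filter, the cause of these shifts was not tested. Of 317 named genes that were called, 68 lost the call on leaving out some single library, 76 without Starved 1 and Starved 5, and 45 under another alternative. With the replicate number as a block, 1537 genes were higher and 1310 lower. Same-numbered Starved and Fed libraries did not deviate together (correlations from -0.018 to 0.044). These correlations cannot show whether such libraries were prepared as pairs, which the labels do not state. Of 1081 genes averaging below 1 CPM, 34 were called higher and 17 lower, all by at least 1.5-fold.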

Other observations

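Several genes with some of the farthest log2 fold changes lay under the level used to name genes and were chosen here after their values were seen. Levels are again the lowest, median and highest library in CPM. C50F7.5 had 1.68, 2.42 and 3.59 CPM in the Starved libraries, against 0.0470, 0.156 and 0.331 CPM in the Fed libraries (adjusted p = 3.63e-09), and C08E8.3 had 0.501, 1.19 and 1.37 CPM in the Starved libraries, against 0, 0 and 0.235 CPM in the Fed libraries (adjusted p = 8.10e-07). The pathogen response gene irg-5 had 0.794, 1.01 and 1.24 CPM in the Starved libraries, against 0, 0.0235 and 0.329 CPM in the Fed libraries (adjusted p = 4.77e-06). In all 3 genes most Fed libraries held few or no reads, so the fitted fold depends on the fit's prior count and is not given. The beta-tubulin gene tbb-6 had 0.556, 1.004 and 1.55 CPM in the Starved libraries, against 0, 0.165 and 0.329 CPM in the Fed libraries (adjusted p = 2.48e-05), and the caenacin gene cnc-11, a neighbour of cnc-4, 0.501, 0.818 and 1.26 CPM in the Starved libraries, against 0.0470, 0.0676 and 0.142 CPM in the Fed libraries (adjusted p = 2.68e-06). Groups lay apart in both genes. All genes named in this paragraph had so few Fed reads that they could be tested only because every Starved library held enough reads. Their p values and the lack of overlap are therefore partly set by the read filter.

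Of other genes chosen in this way, fmo-2, a flavin-containing monooxygenase gene known in worms for its rise on fasting and in low oxygen, had 3.31, 5.24 and 7.59 CPM in the Starved libraries, against 1.51, 1.86 and 2.96 CPM in the Fed libraries (log2 fold change 1.42 ± 0.19, adjusted p = 3.10e-06). The predicted methyltransferase gene comt-4 had 5.21, 5.95 and 8.28 CPM in the Starved libraries, against 2.30, 2.61 and 3.25 CPM in the Fed libraries (log2 fold change 1.199 ± 0.14, adjusted p = 2.84e-07), and the lysozyme gene lys-3 0.694, 0.960 and 1.24 CPM in the Starved libraries, against 0.235, 0.353 and 0.444 CPM in the Fed libraries (log2 fold change 1.49 ± 0.31, adjusted p = 0.000788). No Starved library of these 3 genes overlapped a Fed one. For lys-3, with few reads in every Fed library, this and its p are again partly set by the read filter. Weakly expressed decreases included eak-6, known in worms from the insulin pathway, with 0.496, 0.825 and 1.16 CPM in the Starved libraries, against 1.36, 1.60 and 2.61 CPM in the Fed libraries (log2 fold change -1.06 ± 0.26, adjusted p = 0.00301), and ZK354.3, with 1.36, 2.62 and 3.08 CPM in the Starved libraries, against 3.82, 4.97 and 6.11 CPM in the Fed libraries (log2 fold change -1.02 ± 0.17, adjusted p = 7.98e-05). Starved libraries of eak-6 and ZK354.3 all lay below the Fed ones.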
